A study of Mus musculus with 7 samples.

Results

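The genes examined here mark neurons and, in particular, the glutamatergic (excitatory) lineage of the cortex. They were selected by gene name from a list of 34 symbols, all of which were present among the 49315 genes of the count tables. The 34 genes were sorted into 6 proneural and intermediate progenitor factors, 7 transcription factors of newborn neurons, 5 structural genes of newborn neurons, 4 cortical layer factors, 10 genes of mature neurons and 2 vesicular glutamate transporters. The libraries came from oligodendroglia taken from mouse brain, and the series' title describes early postnatal NG2 glia and asks which genes Sox9 regulates in them. The 4 Sox9-tg libraries carried a Sox9 transgene, and the 3 control libraries were wild type for Sox9. The titles call the libraries biological replicates but do not tie them to animals, litters or cultures, so the p-values measure the spread between these libraries, which may be technical in part. The sources used here do not give the promoter of the transgene, the age in days, the sex, the sorting step or any batch.

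Cortical glutamatergic neurons arise through a relay of transcription factors. Neurogenins start neuronal commitment in dividing progenitors, Eomes marks the intermediate progenitors that follow, and NeuroD factors and Tbr1 accompany the exit into newborn neurons. Structural genes such as Tubb3 and Dcx come on in newborn neurons of every transmitter type, whereas the synaptic genes Syt1, Syp and Camk2a mark maturation. NG2 glia are the dividing progenitors of oligodendrocytes and are not a neuronal stage, so neuronal transcripts in such a preparation can come from other cells or from low expression in the glia themselves. In bulk RNA, fewer neuronal cells and less neuronal RNA per cell cannot be told apart.

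The Sox9-tg libraries held between 15768472 and 20815459 gene counts and the control libraries between 17275678 and 30507326. Levels are given as CPM, that is, counts scaled to a common library total, and a total of 3 counts in a library, the least taken as a signal, corresponded to 0.0970 to 0.193 CPM. Sox9 averaged 2915 CPM in Sox9-tg and 295 CPM in control libraries, and no library went against its label in this gene. The 8 markers of NG2 glia were detected in both groups and summed to 9099 to 12379 CPM in Sox9-tg and 4008 to 5101 CPM in control libraries. Of these 8 markers 7 rose in Sox9-tg libraries and Ptprz1 did not pass. Values after a ± sign are SD over 4 Sox9-tg or 3 control libraries. A log2 fold change is given for Sox9-tg over control, with its standard error (SE). An adjusted p is from the quasi-likelihood test of edgeR on all 7 libraries, adjusted by Benjamini-Hochberg over the 16616 tested genes, unless another tool, filter, scaling or left-out library is named, and then it is adjusted over the genes that fit tested. The threshold was 0.05.

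Transcription factors of newborn glutamatergic neurons and of their intermediate progenitors fell in Sox9-tg libraries. Eomes, Neurod4, Neurod1, Neurod2, Neurod6, Tbr1 and the transporter gene Slc17a6 were between 4.40-fold (Neurod6) and 7.43-fold (Eomes) lower, while Neurog2 at the head of the relay did not pass the test. General neuronal genes were mixed: Rbfox3 (log2 fold change -1.47), Stmn2 (-1.08) and Syt1 (-0.75) fell, whereas Dcx and Map2 did not pass. All 5 newborn structural genes and all 10 mature genes had a log2 fold change below 0, and 1 and 2 of them passed. Of the 33 genes that were tested, 14 fell (42.4%) and 0 rose, beside 5.86% lower and 7.69% higher among all tested genes. Of the 34, Neurog1 missed the filter on low counts, and Neurod4 passed it with no Sox9-tg library above it, so for this gene the filter favoured a difference. The median log2 fold change of the 33 was -0.75, against -0.01 over all tested genes. In 17 of the 33 every Sox9-tg library lay below every control library (51.5%, against 11.5% of all tested genes), and 30 of the 33 had a log2 fold change below 0. At an unadjusted p under 0.05, 20 were lower and 0 higher, beside 12.5% lower and 14.5% higher among all tested genes. DESeq2 called 18 lower and 0 higher, beside 8.06% lower and 10.3% higher of all genes, and the 4 it added were Nhlh1, Tubb3, Elavl4 and Syp. The limma-voom fit called 12 lower and 0 higher, beside 6.05% lower and 7.47% higher of all genes. Differences between the stages below were not tested, since the genes of a stage are not replicates.

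**Figure D1:**
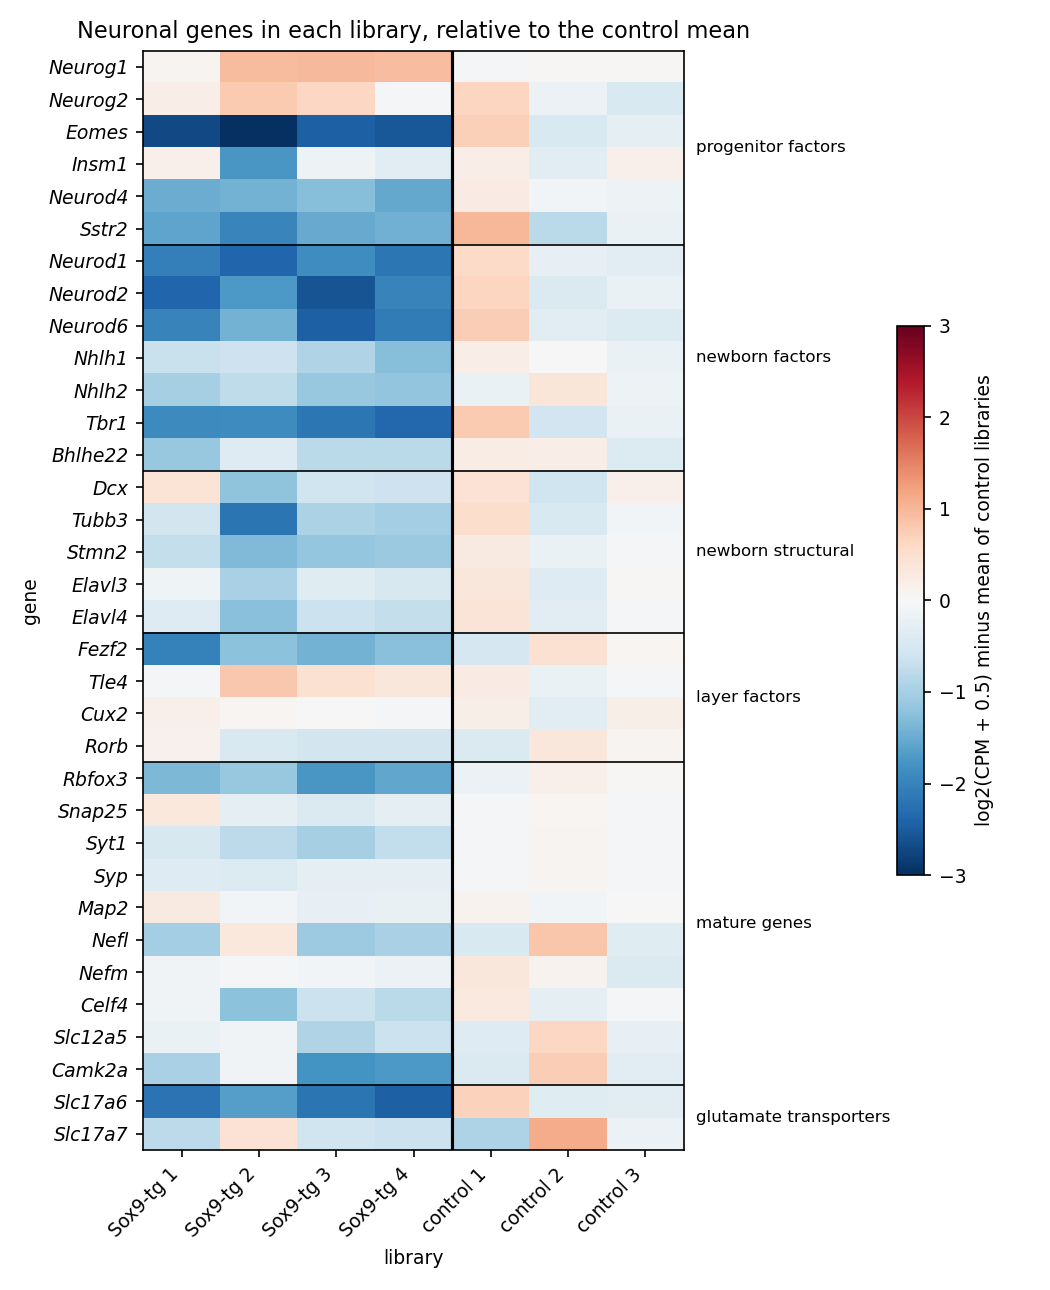
Level of each of the 34 genes (rows, by stage) in each library (columns), as log2(CPM + 0.5) minus the mean of the 3 control libraries, blue for lower and red for higher. The rows of Eomes, Neurod1, Neurod2, Neurod6, Tbr1 and Slc17a6 are blue in all 4 Sox9-tg libraries, while Neurog2, Cux2, Map2 and Nefm stay near white or mixed.

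To show the regulatory sequence of genes that fell together, the 250 bases before the RefSeq start (GRCm38.p6) are given for Eomes, which had the lowest log2 fold change of the 33, for the newborn factors Tbr1 and Neurod2, and for Rbfox3, the mature gene with the smallest adjusted p. Capitals mark a match to CAGATG, an E-box of the kind bound by proneural factors, or to ACAAAG, a core of the kind bound by SOX proteins, on either strand. The windows run 5′ to 3′ on the strand of the gene.
Eomes, chr9:118477939-118478188, plus strand: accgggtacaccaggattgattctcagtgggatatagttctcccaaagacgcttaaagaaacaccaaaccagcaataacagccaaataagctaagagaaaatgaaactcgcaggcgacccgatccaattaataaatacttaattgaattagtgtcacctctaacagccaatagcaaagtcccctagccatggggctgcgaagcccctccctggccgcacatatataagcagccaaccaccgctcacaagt
Tbr1, chr2:61804203-61804452, plus strand: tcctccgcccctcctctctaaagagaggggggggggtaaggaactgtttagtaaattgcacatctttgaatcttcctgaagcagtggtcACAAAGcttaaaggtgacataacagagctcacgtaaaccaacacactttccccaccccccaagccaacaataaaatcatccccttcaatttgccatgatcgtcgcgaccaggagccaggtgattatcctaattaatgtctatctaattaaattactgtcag
Neurod2, chr11:98329646-98329895, minus strand: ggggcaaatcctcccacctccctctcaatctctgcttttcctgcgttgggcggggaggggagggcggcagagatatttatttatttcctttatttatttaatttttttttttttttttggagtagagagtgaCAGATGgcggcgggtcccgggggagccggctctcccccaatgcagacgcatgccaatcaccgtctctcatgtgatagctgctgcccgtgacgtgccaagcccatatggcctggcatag
Rbfox3, chr11:118761042-118761291, minus strand: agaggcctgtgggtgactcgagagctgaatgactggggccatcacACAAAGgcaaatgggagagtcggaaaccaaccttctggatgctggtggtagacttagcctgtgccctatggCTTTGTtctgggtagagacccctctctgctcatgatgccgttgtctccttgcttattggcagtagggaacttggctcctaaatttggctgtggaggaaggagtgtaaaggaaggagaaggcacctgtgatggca
The Neurod2 window held 1 match to CAGATG, which begins 118 bases before the start. E-box and SOX sequences other than those named here were not searched, and such sequences may be present in lower case. The Tbr1 window held 1 match to ACAAAG 161 bases before the start and lies within an exon of a non-coding Tbr1 transcript in GENCODE M21. The Rbfox3 window held 2 matches to ACAAAG or its reverse, which begin 205 and 134 bases before a start that lies within an intron of the longer GENCODE gene. The Eomes window held no match to the motifs searched. A promoter was listed for 26 of the 34 genes. For these, CAGATG (or its reverse CATCTG) was found in 3, or 11.5%, against 14.5% of the 27025 genes with a listed promoter, and CAGCTG in 1, or 3.85%, against 12.8%. For the SOX cores, ACAAAG (reverse CTTTGT) was found in 3, or 11.5%, against 16.5%, and ACAATG (reverse CATTGT) in 3, or 11.5%, against 10.99%. Of the 12 genes called lower that had a listed promoter, 2 held either E-box searched (16.7%, against 25.3% of all listed promoters). Either SOX core searched was held by 2 of the 12 (16.7%, against 25.5%). The 4 windows shown are examples and do not stand for these shares. Windows of the first listed start were searched on both strands, and no matches overlapped in the 4 windows shown.

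Of the 5 tested progenitor factors 3 fell, and their median log2 fold change was -1.92. Among the 3 was Neurod4, which passed the filter through its control libraries alone, so both the count and the median lean towards a fall. Neurog2, a proneural factor that turns on Eomes and NeuroD genes in the cortex, stood at 6.93, 10.7, 9.47 and 5.76 CPM in Sox9-tg libraries 1 to 4, against 9.59, 5.27 and 4.24 CPM in control libraries 1 to 3. The groups overlapped throughout, and the gene did not pass (log2 fold change 0.38, SE 0.33, adjusted p = 0.526). Its paralog Neurog1 had few counts: the Sox9-tg libraries held 1, 10, 8 and 10 counts and the control libraries 0, 1 and 1. The filter level of 0.481 CPM was reached in 2 Sox9-tg and 0 control libraries, so the gene was not tested. With no filter its adjusted p was 0.0546, and without control library 1, where it passed the filter, 0.101.

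Eomes (also called Tbr2; chromosome 9, 118478212 to 118486132) is the defining factor of intermediate progenitors. It had 4.25, 3.29, 5.22 and 4.88 CPM in the Sox9-tg libraries, against 51.0, 22.3 and 25.3 CPM in the control libraries. No library of a group reached the other group, and control library 1 was about as high as the other two control libraries together. The fall was 7.43-fold (log2 fold change -2.89, SE 0.31, adjusted p = 0.000769), and without control library 1 the log2 fold change was -2.41. Neurod4, a NeuroD factor of neuronal progenitors, was scarce, with 0.210, 0.249, 0.322 and 0.195 CPM in Sox9-tg and 1.86, 1.40 and 1.29 CPM in control libraries. It fell by 2.61 on the log2 scale (SE 0.37, adjusted p = 0.00267), with Sox9-tg libraries holding only 4 or 5 counts each.

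Sstr2, a somatostatin receptor found on cortical intermediate progenitors and migrating neurons, had 4.20, 3.04, 4.44 and 4.68 CPM in Sox9-tg and 27.4, 7.57 and 11.8 CPM in control libraries. It fell 3.79-fold (log2 fold change -1.92, SE 0.40, adjusted p = 0.0154). Control library 1 was the highest by far, and without it the log2 fold change was -1.22 (adjusted p = 0.0398). Insm1, a zinc-finger factor of delaminating neuronal progenitors, did not pass. Its level was 377, 99.4, 301 and 265 CPM in Sox9-tg libraries, against 387, 264 and 373 CPM in control libraries (adjusted p = 0.559), with Sox9-tg library 2 far below all others.

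**Figure D2:**
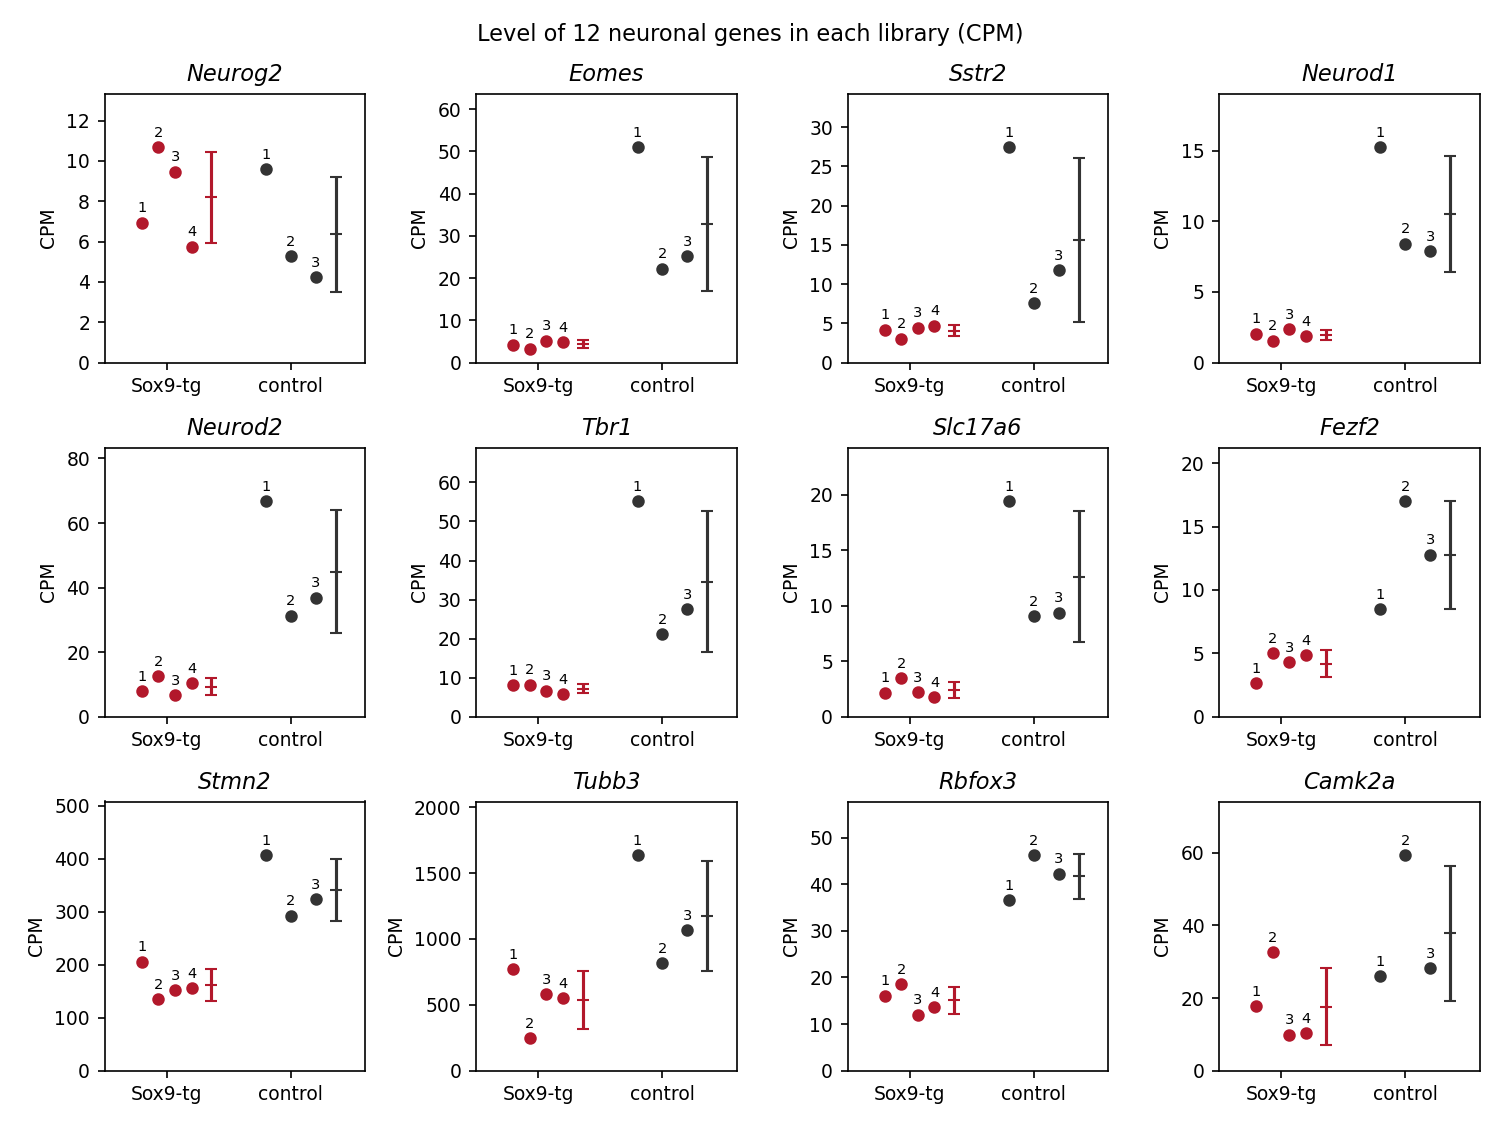
CPM of 12 of the genes in each library, Sox9-tg in red and control in black, with the library number above each point and the mean and SD beside each group; each vertical axis starts at 0. For Eomes, Neurod1, Neurod2, Tbr1 and Slc17a6 the Sox9-tg libraries lie close together below all controls and control library 1 lies highest, whereas for Camk2a and Fezf2 control library 2 lies highest.

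Of the 7 newborn neuron factors 6 fell, and their median log2 fold change was -2.14. Neurod1, which drives the exit from the progenitor state, had 2.05, 1.55, 2.38 and 1.85 CPM in Sox9-tg and 15.2, 8.42 and 7.89 CPM in control libraries (log2 fold change -2.42, SE 0.30, adjusted p = 0.00142). Neurod2 (chromosome 11, 98325415 to 98329648), a factor of postmitotic glutamatergic neurons, had 7.82, 12.5, 6.63 and 10.3 CPM in Sox9-tg libraries, against 66.7, 31.3 and 36.9 CPM in control libraries. Its highest Sox9-tg library stood well under its lowest control library, and it fell 4.80-fold (log2 fold change -2.26, SE 0.30, adjusted p = 0.00195). Neurod6, which acts together with Neurod2 in cortical neurons, was at 5.36, 8.28, 3.80 and 4.98 CPM in Sox9-tg and 39.0, 18.3 and 17.2 CPM in control libraries (log2 fold change -2.14, SE 0.35, adjusted p = 0.00495).

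Tbr1 (chromosome 2, 61802930 to 61814114), a T-box factor of newborn and deep-layer cortical neurons and the close relative of Eomes, had the control libraries in the same order as Eomes. It had 8.09, 8.18, 6.63 and 5.81 CPM in Sox9-tg libraries, against 55.2, 21.1 and 27.6 CPM in control libraries (log2 fold change -2.26, SE 0.31, adjusted p = 0.00238). Control library 1 was the highest control library for 6 of the 7 newborn factors. Without it the log2 fold changes of Neurod2 and Tbr1 were -1.86 and -1.75, and both still passed.

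Nhlh2, a bHLH factor of newborn neurons, had 0.683, 0.898, 0.580 and 0.537 CPM in Sox9-tg and 1.57, 2.54 and 1.62 CPM in control libraries (log2 fold change -1.49, SE 0.36, adjusted p = 0.0255). Its paralog Nhlh1 lay between 0.586 and 1.197 CPM in Sox9-tg and between 1.78 and 2.499 CPM in control libraries; the groups did not overlap, but the gene did not pass (adjusted p = 0.0685). It passed without Sox9-tg library 1 (adjusted p = 0.0471) and in DESeq2 (0.0400). Bhlhe22, a repressor used in the areal patterning of cortical neurons, had 8.66, 14.96, 11.1 and 11.1 CPM in Sox9-tg and 23.0, 22.7 and 14.7 CPM in control libraries, so that Sox9-tg library 2 overlapped control library 3 (log2 fold change -0.81, SE 0.22, adjusted p = 0.0444). The call of Nhlh2 was lost without control library 1 (adjusted p = 0.0622), 2 (0.0971) or 3 (0.0818) or Sox9-tg library 3 (0.0751) or 4 (0.0772). That of Bhlhe22 was lost without control library 1 (adjusted p = 0.145) or 2 (0.109) or Sox9-tg library 1 (0.0614), 3 (0.109) or 4 (0.112). The other 12 of the 14 calls held without each library in turn, though limma-voom did not call Sstr2 (adjusted p = 0.0512) or Bhlhe22 (0.0554).

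The vesicular glutamate transporters load glutamate into synaptic vesicles and define a glutamatergic transmitter type. Slc17a6 (VGLUT2), the form used early in cortical neurons, followed the newborn factors. It had 2.15, 3.44, 2.19 and 1.76 CPM in Sox9-tg libraries, against 19.4, 9.04 and 9.38 CPM in control libraries, and fell 5.25-fold (log2 fold change -2.39, SE 0.35, adjusted p = 0.00304). Slc17a7 (VGLUT1), the form of mature cortical neurons, ranged from 2.31 to 5.99 CPM in Sox9-tg and from 2.03 to 9.85 CPM in control libraries and did not pass (log2 fold change -0.62, SE 0.54, adjusted p = 0.519). Its control libraries held both the lowest and the highest of the 7 values, and without control library 2 its log2 fold change was 0.22.

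Of the layer factors, 1 of 4 fell. Fezf2, which specifies subcerebral projection neurons of the deep layers, had 2.63, 4.99, 4.32 and 4.83 CPM in Sox9-tg and 8.49, 17.0 and 12.8 CPM in control libraries (log2 fold change -1.61, SE 0.30, adjusted p = 0.00891). Here control library 1 was the lowest control library, the reverse of Eomes and Tbr1. Cux2, a homeobox factor of upper layers and of some glia, had 86.5, 80.7, 78.8 and 75.4 CPM in Sox9-tg libraries, against 87.3, 61.2 and 87.4 CPM in control libraries. Its log2 fold change of 0.03 (SE 0.14, adjusted p = 0.916) took either sign under other scalings. Tle4, a corepressor that marks corticothalamic neurons, had 54.0, 98.7, 77.3 and 71.3 CPM in Sox9-tg and 66.0, 48.8 and 54.2 CPM in control libraries (log2 fold change 0.42, SE 0.20, adjusted p = 0.2202). Rorb, a nuclear receptor of layer 4 neurons, had 30.3, 20.2, 18.7 and 18.8 CPM in Sox9-tg and 20.6, 35.6 and 29.3 CPM in control libraries (adjusted p = 0.342), with overlapping groups.

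**Figure D3:**
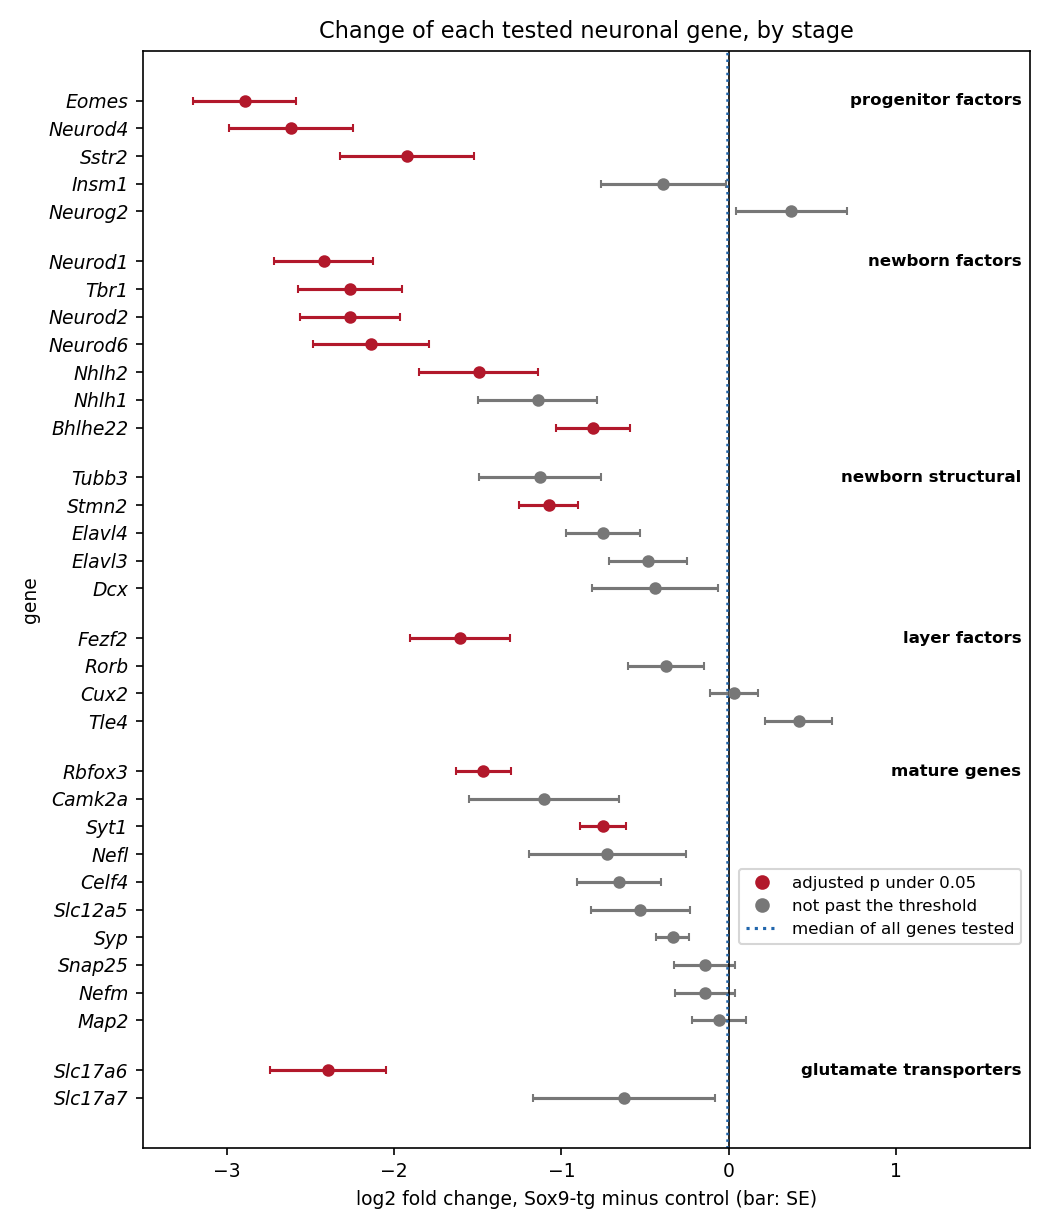
Log2 fold change, Sox9-tg minus control, of the 33 tested genes (points, with SE as bars) ordered by stage and size; red points have an adjusted p under 0.05, and the dotted line is the median of all tested genes at -0.01. Newborn factors lie between -2.42 and -0.81, whereas mature genes lie between -1.47 and -0.06.

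Of the 5 structural genes of newborn neurons 1 fell, and their median log2 fold change was -0.75. Stmn2, a tubulin-binding protein of growing axons, had 205, 135, 152 and 155 CPM in Sox9-tg libraries, against 407, 292 and 324 CPM in control libraries. Its groups were well apart, and it fell 2.11-fold (log2 fold change -1.08, SE 0.18, adjusted p = 0.00521). Tubb3, the neuronal beta-tubulin, had 768, 245, 581 and 552 CPM in Sox9-tg and 1635, 816 and 1068 CPM in control libraries. The groups did not overlap, yet the gene did not pass (log2 fold change -1.13, SE 0.36, adjusted p = 0.0781). Elavl4, an RNA-binding Hu protein, had 105, 57.2, 86.5 and 82.9 CPM in Sox9-tg and 178, 107 and 134 CPM in control libraries (log2 fold change -0.75, SE 0.22, adjusted p = 0.0585), and its groups did not overlap. The related Elavl3 had 572, 319, 484 and 450 CPM in Sox9-tg and 795, 474 and 643 CPM in control libraries (adjusted p = 0.224), with overlap.

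Dcx, a microtubule-associated protein of migrating neurons, had 1050.4, 342, 516 and 514 CPM in Sox9-tg libraries, against 1069, 523 and 872 CPM in control libraries (log2 fold change -0.44, SE 0.38, adjusted p = 0.509). Sox9-tg library 1 came close to the highest control library, and the other 3 Sox9-tg libraries lay below every control library. All 5 structural genes shared an order of libraries: Sox9-tg library 1 was the highest and library 2 the lowest of the Sox9-tg group, and control library 1 was the highest and library 2 the lowest of the controls. Without Sox9-tg library 1, 3 of the 5 fell, as Stmn2 was joined by Tubb3 (adjusted p = 0.0406) and Elavl4 (0.0289), beside 8.46% lower and 10.9% higher among all genes tested. Without control library 2, 2 fell, Stmn2 and Elavl4 (0.0410), beside 4.64% lower and 7.34% higher among all genes tested. In an edgeR fit with the replicate number as a block, Tubb3 (adjusted p = 0.0022), Elavl4 (0.0026) and Elavl3 (0.0386) joined Stmn2, beside 9.08% lower among all genes tested.

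The same library order appeared in genes of the inhibitory lineage, which summed to 3342, 935, 2399 and 2303 CPM in Sox9-tg libraries 1 to 4 and to 4435, 2571 and 4157 CPM in control libraries 1 to 3 over 16 genes. In that list Gad2, an enzyme of GABA synthesis, Calb2, a calcium-binding protein of interneurons, and Isl1, a factor of striatal and other neurons, fell. The call of Gad2 was lost without control library 3 (adjusted p = 0.0544), and that of Isl1 without control library 1 (0.105) or 3 (0.0701) or Sox9-tg library 3 (0.0650) or 4 (0.0660). The neuropeptide gene Npy rose, at 268 ± 101 CPM in Sox9-tg and 15.2 ± 1.66 CPM in control libraries, and Dlx1, an interneuron factor at 723 ± 331 CPM in Sox9-tg and 1244 ± 360 CPM in control libraries, did not pass (adjusted p = 0.242). The 6 markers of myelinating cells summed to 704, 4384, 2603 and 2285 CPM in Sox9-tg libraries 1 to 4, lowest in library 1 and highest in library 2, and to between 139 and 269 CPM in control libraries. The 7 radial glia and neural stem cell markers summed to 1550 to 2227 CPM in Sox9-tg and 2054 to 2742 CPM in control libraries, and 4 of them fell. The 7 astrocyte markers summed to 1363 to 1989 CPM in Sox9-tg and 1984 to 3572 CPM in control libraries, and 3 fell and 1 rose. The part of such differences between libraries in the neuronal results was not tested.

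Of the 10 mature neuron genes 2 fell, and their median log2 fold change was -0.59. Rbfox3 (NeuN; chromosome 11, 118489762 to 118911597), a splicing factor of postmitotic neurons, had 16.1, 18.5, 12.04 and 13.7 CPM in Sox9-tg libraries, against 36.5, 46.2 and 42.3 CPM in control libraries. It fell 2.76-fold with a narrow spread in both groups (log2 fold change -1.47, SE 0.16, adjusted p = 0.000973). Syt1, the calcium sensor of synaptic vesicles, had 25.2, 20.2, 17.3 and 21.0 CPM in Sox9-tg and 34.0025, 37.0 and 34.5 CPM in control libraries (log2 fold change -0.75, SE 0.14, adjusted p = 0.00883). Both calls held without each library in turn.

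The other 8 mature genes did not pass. Syp, the vesicle protein synaptophysin, had 43.5, 42.9, 47.5 and 47.6 CPM in Sox9-tg and 56.0, 60.8 and 54.9 CPM in control libraries; the groups did not overlap, and the log2 fold change was -0.33 (SE 0.10, adjusted p = 0.0597). It passed under upper-quartile factors (adjusted p = 0.0314), under library totals (0.0416), with a filter of at least 1 CPM in 3 libraries (0.0452) and in DESeq2 (0.0215). Celf4, an RNA-binding protein of neurons, had 249.97, 115, 172 and 153 CPM in Sox9-tg and 330, 223 and 260.2 CPM in control libraries (adjusted p = 0.132). Snap25, a component of the vesicle fusion machinery, had 54.4, 35.2, 32.2 and 35.1 CPM in Sox9-tg and 42.6, 44.9 and 42.5 CPM in control libraries (adjusted p = 0.668). Without Sox9-tg library 1, Celf4 and Snap25 passed (adjusted p = 0.0185 and 0.0384), so that 4 of the 10 mature genes were lower, beside 8.46% of all genes tested without that library.

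Map2, a dendritic microtubule protein, had 1084, 856, 763 and 779 CPM in Sox9-tg libraries, against 973, 853 and 894 CPM in control libraries. Its log2 fold change was -0.06 (SE 0.16, adjusted p = 0.861), and the groups overlapped. Nefm, the middle neurofilament, had 19.4, 20.0, 19.6 and 18.3 CPM in Sox9-tg and 26.4, 22.3 and 15.4 CPM in control libraries (adjusted p = 0.668). Nefl, the light neurofilament, had 4.41, 11.9, 4.12 and 4.54 CPM in Sox9-tg and 6.68, 17.1 and 7.21 CPM in control libraries (adjusted p = 0.367). Their exons overlap on opposite strands by 1108 bases, 32.8% of the exon length of Nefl and 19.2% of that of Nefm, and the strand setting of the counting is not given, so their counts are uncertain. Smaller overlaps involved Syp, with 16.8% of its exon length shared with an antisense gene that had 64 counts in all against 7934 for Syp, and Neurod1, with 7.37% shared with Cerkl, which had 21 counts against 910 for Neurod1.

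Camk2a, a kinase of excitatory synapses, had 17.7, 32.6, 9.85 and 10.3 CPM in Sox9-tg and 26.0, 59.3 and 28.3 CPM in control libraries (log2 fold change -1.10, SE 0.45, adjusted p = 0.152); without Sox9-tg library 2 it passed (-1.58, adjusted p = 0.0268). Slc12a5 (KCC2), the chloride exporter of maturing neurons, had 13.9, 14.9, 8.37 and 10.1 CPM in Sox9-tg and 12.1, 25.3 and 13.6 CPM in control libraries (adjusted p = 0.299). In both genes, as in Nefl and Slc17a7, library 2 was the highest of its group. The same 2 libraries led their groups in markers of other cells: 8 microglial markers summed to 238 CPM in Sox9-tg library 2 and 36.0 to 78.0 CPM in the other Sox9-tg libraries, and to 584 CPM in control library 2 and 77.0 to 167 CPM in the other controls. The 6 endothelial markers summed to 32.3 CPM in Sox9-tg library 2, with 10.9 to 13.8 CPM in the rest, and to 136 CPM in control library 2, with 6.79 to 9.07 CPM in the rest. Each of these 14 markers had counts in all 7 libraries, and 0 of the 13 tested passed in edgeR (3 lower and 0 higher at an unadjusted p under 0.05), DESeq2 or limma-voom. All 8 microglial and all 5 tested endothelial markers had a log2 fold change below 0, with medians of -1.50 and -2.35. The 3 tested blood markers were below 0 too (median -1.76), and 0 of them passed in edgeR, while DESeq2 called 1 lower. The part of microglial, endothelial and blood RNA in the neuronal results was not tested. Without both libraries numbered 2, an alternative chosen after seeing the data, 15 of the 33 genes fell and 0 rose, beside 5.03% lower and 7.06% higher among all genes tested, among them Camk2a (adjusted p = 0.0357), and 12 of these were among the 14 calls made with all libraries.

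**Figure D4:**
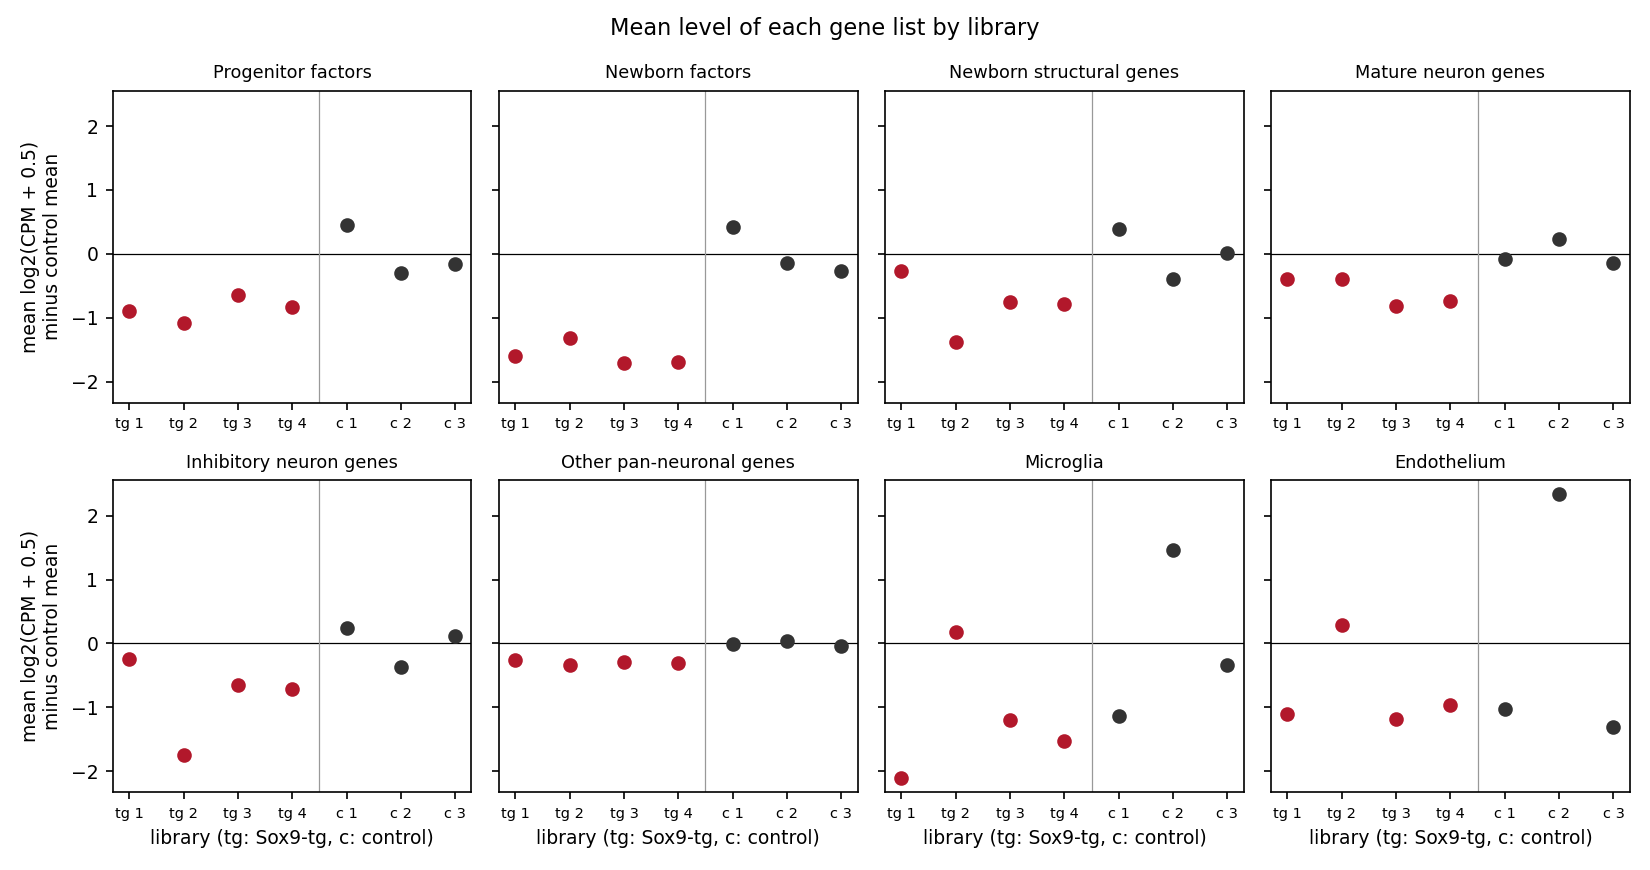
Mean log2(CPM + 0.5) of each gene list in each library, relative to the mean of the control libraries, with Sox9-tg in red and control in black. Newborn factors are lower in all 4 Sox9-tg libraries by a similar amount, newborn structural and inhibitory genes are lowest in Sox9-tg library 2, and microglial and endothelial markers peak in library 2 of each group.

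Per kilobase of exon, the 34 genes spanned several orders of magnitude, and the order differed between groups. Tubb3 led both, at 287 CPM per kilobase in Sox9-tg and 628 in control libraries, followed by Insm1 with 84.0 in Sox9-tg and 110.2 in control libraries and Elavl3 with 66.2 in Sox9-tg and 92.5 in control libraries; of these 3 genes, the groups were apart for Tubb3 alone. Neurod2 averaged 2.97 CPM per kilobase in Sox9-tg and 14.3 in control libraries. Neurod6 averaged 2.61 in Sox9-tg and 11.6 in control libraries, Eomes 1.06 in Sox9-tg and 7.90 in control libraries, and Tbr1 1.31 in Sox9-tg and 6.31 in control libraries. Tle4 and Cux2 by contrast stood at 13.2 and 7.97 CPM per kilobase in Sox9-tg libraries and at 9.88 and 7.80 in control libraries. So Neurod2 had a higher mean than Cux2 in control libraries and a lower one in Sox9-tg libraries. Lowest in control libraries was Neurog1 at 0.0128 CPM per kilobase, against 0.231 in Sox9-tg libraries.

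Further genes of the same programme were taken from lists drawn up for this comparison with earlier results of these data known, so their counts are not independent support. Of 17 other targets of proneural factors, 5 fell and 1 rose, and the median log2 fold change was -0.46. Those with the smallest p were Gadd45g, a growth-arrest gene switched on by neurogenins (log2 fold change -1.79, SE 0.21, adjusted p = 0.00122), the bHLH cofactor Hes6 (-0.99, SE 0.12), Mfng, which modifies Notch receptors (-2.13, SE 0.30), and the zinc-finger factor St18 (-1.54, SE 0.26). Rnd2, a GTPase used in neuronal migration, rose (1.195, SE 0.28, adjusted p = 0.0244), a call lost without control library 2 (adjusted p = 0.0640) or 3 (0.111) or Sox9-tg library 3 (0.0560) or 4 (0.0571). The abundant Sox4, at 1230.2 ± 361 CPM in Sox9-tg and 1140 ± 322 CPM in control libraries, did not pass (adjusted p = 0.855). Nor did Igfbpl1, with 316 ± 153 CPM in Sox9-tg and 580 ± 199 CPM in control libraries (adjusted p = 0.227).

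Other cortical glutamatergic genes gave 7 lower and 1 higher of 18 tested, with a median of -0.70. Mdga1, an adhesion molecule of upper-layer neurons, had 14.5 ± 1.02 CPM in Sox9-tg and 58.3 ± 3.24 CPM in control libraries (log2 fold change -2.005, SE 0.11, adjusted p = 0.000118). Unc5d, a netrin receptor of migrating upper-layer neurons (-2.05, SE 0.29), and the neuritin gene Nrn1 (-1.51, SE 0.29) fell as well. Crym, which binds thyroid hormone, rose (1.49, SE 0.37), a call lost without control library 1 (adjusted p = 0.0851) or 3 (0.118) or Sox9-tg library 3 (0.0510) or 4 (0.0640), with a log2 fold change of 2.11 without control library 2. Pou3f3 and Lmo4 did not pass (adjusted p = 0.0872 and 0.196). Pou3f3 passed without Sox9-tg library 1 (adjusted p = 0.0471) and in DESeq2 (0.0248), and Lmo4 without Sox9-tg library 2 (0.0498).

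Of 33 other pan-neuronal genes, 5 fell and 1 rose. Their median log2 fold change was -0.35, and their summed level, 7653 to 8592 CPM in Sox9-tg and 6889 to 9048 CPM in control libraries, overlapped between the groups. The surface protein Thy1 (-1.41, SE 0.21), the splicing factor Rbfox1 (-1.25, SE 0.16), the vesicle protein Syt4 (-0.71, SE 0.15) and the neuronal enolase Eno2 (-0.68, SE 0.17) fell, Syt4 not without control library 3 (adjusted p = 0.0663) and Eno2 not without control library 2 (0.0878) or 3 (0.0823) or Sox9-tg library 1 (0.05003), 3 (0.0970) or 4 (0.0814). The vesicle protein Sv2a rose by 0.48 on the log2 scale (adjusted p = 0.0495), a call lost without any library other than Sox9-tg library 1 (adjusted p = 0.0765 to 0.172), and also under upper-quartile factors (0.0517), library totals (0.0642), no filter (0.0608) and limma-voom (0.0567). Tubb2b and Dpysl3, at 2795 ± 199 and 1873 ± 131 CPM in Sox9-tg libraries and 2357 ± 493 and 1265 ± 322 CPM in control libraries, did not pass; Dpysl3 passed without control library 1 (adjusted p = 0.0304) and in DESeq2 (0.0137).

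Factors that hold back neuronal genes were also listed. Of 11, 4 fell and 0 rose in edgeR (1 higher at an unadjusted p under 0.05, and 1 higher in DESeq2 and 0 in limma-voom), with a median of -0.45. Rcor2, a corepressor partner of REST, had 77.2 ± 17.8 CPM in Sox9-tg and 170.3 ± 23.9 CPM in control libraries (log2 fold change -1.14, SE 0.20, adjusted p = 0.00656). The inhibitors of bHLH factors Id1 (-1.41, SE 0.19), Id2 (-0.81, SE 0.19) and Id3 (-0.63, SE 0.17) fell too. The call of Id2 was lost without control library 2 (adjusted p = 0.0533) or 3 (0.0864) or Sox9-tg library 3 (0.0623) or 4 (0.0512). That of Id3 was lost without control library 2 (adjusted p = 0.0986) or 3 (0.0880) or any Sox9-tg library (0.0587, 0.0644, 0.106 and 0.0770 for libraries 1 to 4). Id4 and Ptbp2, the neuronal form of the splicing repressor, did not pass (adjusted p = 0.695 and 0.283).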

How the data were processed

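RNA from 7 libraries was measured by RNA sequencing. The authors deposited whole-number read counts per gene, with an Ensembl ID and a gene name. GRCm38 and the tools STAR 2.5.2b, Trimmomatic 0.36, Subread 1.5.2 with featureCounts, DESeq and DESeq2 appear in the submitters' processing notes; the sources used here give no settings, annotation or strand use. Groups and replicate numbers came from the sample titles. Genes were filtered with filterByExpr (minimum count 10, minimum total 15), which kept 16616 of 49315, scaled with TMM and tested with edgeR 4.0.16 in R 4.3.3 on all 7 libraries, with a two-sided test and no covariate beside the group. The SE of a log2 fold change is its absolute value over the root of the F statistic. Coordinates and exon lengths came from GENCODE M21 (GRCm38), promoters from RefSeq (GRCm38.p6). Alternatives used DESeq2 1.42.0, limma 3.58.1, other scalings and filters, the replicate block and each library left out. Of the 34 genes, those called, or averaging at least 5 CPM, are given in every library. From each other list at most 4 called genes per direction and 2 abundant uncalled genes are named; 1 gene this rule names is not reported here. The members and lists were chosen with earlier results of these data known. Counting error alone limits the low genes to the floor of 3 counts given with the results.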

Additional observations from a re-analysis of the deposited data

Results flagged for a closer look

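Among the 67 genes examined for a single Sox9-tg library far from the other 3, 7 had one; chance alone flags about 1 in 20. Neurog1 was at 0.0525 CPM in Sox9-tg library 1 and at 0.488 CPM or more in the rest, on 1 count against 8 to 10. Rorb and Snap25 were highest in Sox9-tg library 1, at 30.3 CPM with the next at 20.2, and at 54.4 CPM with the next at 35.2. In Sox9-tg library 2, Nefl (11.9 CPM, next 4.54), Slc17a7 (5.99 CPM, next 2.71) and Rbfox1 (16.2 CPM, next 13.8) were highest and Rcor2 (50.8 CPM, next 82.5) was lowest.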

How the results depend on the processing

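Of the 14 genes called lower, 12 were called without each library in turn and 11 under every setting run; limma-voom lost Sstr2 (adjusted p = 0.0512) and Bhlhe22 (0.0554), and the fit with no filter lost Nhlh2 (0.0696). The count of genes called lower was 12 to 19 over all settings and 12 to 18 with a library left out, and 0 were called higher in any. The share of all tested genes called lower was 2.26% to 9.08% over all settings and 2.26% to 8.46% with a library left out. The number of all changed genes, 2251, was 965 without control library 3, 1261 without control library 1, 1342 and 1356 without Sox9-tg libraries 3 and 4, and at most 3169 (without Sox9-tg library 1). Called newborn structural genes numbered 2 under upper-quartile factors and with no filter, beside 6.69% and 2.74% lower among all genes tested. They numbered 3 under DESeq2 and without both libraries numbered 2, beside 8.06% and 5.03%. With a library left out they numbered 1 to 3 and called mature genes 2 to 4, beside 2.26% to 8.46%. Deviations of same-numbered libraries correlated at 0.32, 0.61 and 0.07 for numbers 1 to 3. Libraries numbered 1 and 2 thus deviated together across the groups, but those numbered 3 hardly did. The labels do not say what the numbers share, so the main fit did not treat them as pairs. With the replicate block 19 of the 33 genes were called lower, beside 1509 of the 16616 tested genes (9.08%), and 3109 genes in all changed. The 19 included 4 newborn structural and 4 mature genes, as Tubb3 (adjusted p = 0.0022), Elavl4 (0.0026), Elavl3 (0.0386), Celf4 (0.0148) and Camk2a (0.0067) were added. Of the other genes named above, the block also called Igfbpl1 (0.0070), Dlx1 (0.0122), Ptbp2 (0.0388) and Pou3f3 (0.0334) lower and Dpysl3 (0.0367) higher. It lost Sv2a (0.0612). Control library 3 and Sox9-tg library 3 did not correlate best with each other. Upper-quartile factors and library totals gave 1112 lower against 1113 higher and 1087 against 1117 genes, in place of 973 and 1278. Log2 fold changes near 0 took both signs: Cux2 was at -0.0093 under upper-quartile factors, at -0.013 under library totals, at -0.11 without both libraries numbered 2, and from -0.12 to 0.13 with a library left out. Likewise Map2 ranged from -0.18 to 0.0061, Nefm from -0.33 to 0.049, Slc17a7 from -1.04 to 0.22 and Sox4 from -0.10 to 0.32. The cause was not tested. Depth limits Neurog1, Neurod4 and Nhlh2, with few counts a library.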
